A study of Mus musculus with 21 samples.

Results

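The proteasome is the protease that degrades proteins tagged with ubiquitin, and its genes carry symbols that begin with Psm. The genes described here are the 48 of 35266 in the deposited tables whose symbol is Psm, one letter from a to g and a number. They encode the subunits of the proteasome and the factors that assemble, activate or inhibit it. Of these, 47 passed the filter on low counts and were tested. Psma8, a form of the alpha ring made in testis, was the exception and had at most 1 count in any library. The 47 genes fell into 7 of the alpha ring and 7 of the beta ring of the 20S core particle, 4 inducible or tissue forms of beta subunits, 6 ATPases and 11 non-ATPase subunits of the 19S regulatory particle, 3 chaperones of 19S assembly, 4 chaperones of 20S assembly, and 5 activators or inhibitors.

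As background, the 20S core is a barrel of alpha and beta rings, and its proteolytic sites face the inside of the beta rings, on Psmb5, Psmb6 and Psmb7. The 19S particle caps the barrel, recognizes ubiquitin chains, removes them and unfolds the substrate with a ring of ATPases. Interferons can replace the catalytic subunits with Psmb8, Psmb9 and Psmb10 to form the immunoproteasome, and cells short of proteasome activity raise most subunit genes together through the transcription factor Nfe2l1. Neurons depend on the proteasome for the turnover of synaptic proteins and for the removal of misfolded proteins from the endoplasmic reticulum.

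RNA-Seq was done on pools of fluorescent neurons picked by hand from the arcuate nucleus of the hypothalamus, with 1 male mouse of the C57BL/6J background per library. AGRP neurons, which drive feeding, came from NPY-hrGFP mice, and POMC neurons, which restrain it, came from mice labelled Pomc-GFP (Pomc topazFP in the study's methods), so that each cell type was defined by a fluorescent protein under a neuropeptide promoter and all cells went through protease digestion before sorting. Mice either had food (fed, 5 AGRP and 5 POMC libraries) or were food-deprived for 24 h (FD, 6 AGRP and 5 POMC libraries). AGRP fed mice were 46 to 55 days old, AGRP FD mice 47 to 55 days, POMC fed mice 51 to 56 days and POMC FD mice 54 to 56 days. A pool held 44 to 214 cells, and a lower value in such a pool cannot be divided into fewer cells that express a gene and less RNA per cell.

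Gene counts per library summed to between 9822298 and 37663979, and AGRP FD replicate 4 was the deepest library. The labels held for both cell types: the summed level of Agrp and Npy was 12064 to 68921 TPM, the deposited length-corrected unit that sums to 1000000 per library, in AGRP libraries and 5.45 to 226 TPM in POMC libraries. All 16 markers of astrocytes, oligodendrocytes, microglia and endothelial cells together came to 25.5 to 62.0 TPM in any library. Library preparation differed between mice in a way the labels record. The volume of spike-in RNA was 1 µl, 10 µl or set by the number of cells, and the AGRP mice of P46-47 were taken as the set by cell number. For AGRP FD replicate 2, with 50 cells, both rules give 1 µl, and its cohort decided the set. POMC fed replicates 1 and 2 were the only POMC mice of P51 and the only POMC libraries with the spike-in set by cell number.

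Proteasome transcripts were abundant and spread over a wide range. On the TPM scale, which corrects for exon length, the highest means over all 21 libraries were 513 for Psme1 (ENSMUSG00000022216, chr14:55578360-55581528, mm10), a subunit of the PA28 activator, 508 for Psmc5 (ENSMUSG00000020708, chr11:106256154-106263120), a 19S ATPase, and 458 for Psma7 (ENSMUSG00000027566, chr2:180036374-180042433), an alpha subunit. The lowest were 0.0107 for Psma8, 0.277 for the thymus form Psmb11 and 2.65 for Psmb9. The lowest of the 31 subunits that make up the alpha, beta, ATPase and non-ATPase parts was Psmd13, with a mean of 48.0 TPM and a range of 28.3 to 89.4 TPM. The 7 assembly chaperones had means of 10.9 TPM (Psmg3) to 87.3 TPM (Psmd5).

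The promoters were read for letters that bind factors known to act on these genes. A RefSeq promoter (GRCm38.p6, the mm10 assembly, 250 bases before to 50 after the start of the gene) was found for 40 of the 48 genes. Both strands were searched for TGACNNNGC, the core of the antioxidant response element that Nfe2l1 binds, for CCAAT, the box that NF-Y binds, and for the endoplasmic reticulum stress element, which begins with a CCAAT box and has 19 letters. The first was in the promoters of 6 of 40 genes, 15% against 14% of the 27025 genes with a promoter, and the second in 14 of 40, 35% against 41.1%. None of the 40 held the third, against 0.137% of all genes. The catalytic subunit Psmb7 and the ATPase Psmc3 had no RefSeq promoter and were not searched. The 6 stretches with the antioxidant core are shown because they include the promoters of 2 of the 3 catalytic subunits and of Psme4 and Psmd12, which had the lowest adjusted p-values in AGRP neurons. Each is given 5′ to 3′ on the strand of the gene, with the core, or its reverse complement, in capitals.
Psme4, chr11:30771728-30771784, plus strand: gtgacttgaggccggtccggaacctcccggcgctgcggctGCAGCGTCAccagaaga
Psmd12, chr11:107479278-107479329, plus strand: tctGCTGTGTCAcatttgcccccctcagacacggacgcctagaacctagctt
Psmc6, chr14:45329574-45329645, plus strand: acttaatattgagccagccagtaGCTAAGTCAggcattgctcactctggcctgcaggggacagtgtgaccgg
Psmb5, chr14:54617994-54618082, minus strand: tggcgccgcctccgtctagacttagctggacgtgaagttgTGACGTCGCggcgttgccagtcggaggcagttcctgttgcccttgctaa
Psmb6, chr11:70525308-70525366, plus strand: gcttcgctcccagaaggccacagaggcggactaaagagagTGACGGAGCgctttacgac
Psmd9, chr5:123228119-123228199, plus strand: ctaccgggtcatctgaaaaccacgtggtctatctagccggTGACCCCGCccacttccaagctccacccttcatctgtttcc
The capitals begin 47 bases before the start in Psmb5, 31 in Psmd9, 9 in Psmb6, 7 in Psme4, 227 in Psmc6 and 247 in Psmd12. The matches describe these letters and are not evidence of binding.

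The first comparison asked how 24 h without food changed AGRP neurons. Many proteasome subunit genes rose. With edgeR's quasi-likelihood test and a Benjamini-Hochberg adjusted p (q) under 0.05 over 16513 genes, 13 of 47 were higher and 0 lower, against 6% of all genes higher and 4.5% lower. The median log2 fold change was 0.51 for the 47 genes and -0.02 for all genes tested. Estimates were above 0 for 31 of 31 subunits of the alpha, beta, ATPase and non-ATPase parts, of which 11 passed the test, and for 48.5% of all genes tested. The size was moderate, since 1 of the 47, Psme4, also met the criteria of the study for a differentially expressed gene (q under 0.05, log2 fold change over 1, mean CPM, counts scaled to a library total of 1000000, over 20 in a group), which 2.48% of all genes met as higher and 2.01% as lower. The libraries of the groups did not overlap for 7 genes, all higher, against 4.08% of all genes higher and 3.57% lower. With DESeq2 and limma-voom, 17 and 15 of the genes passed, and each list held the 13.

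**Figure D1:**
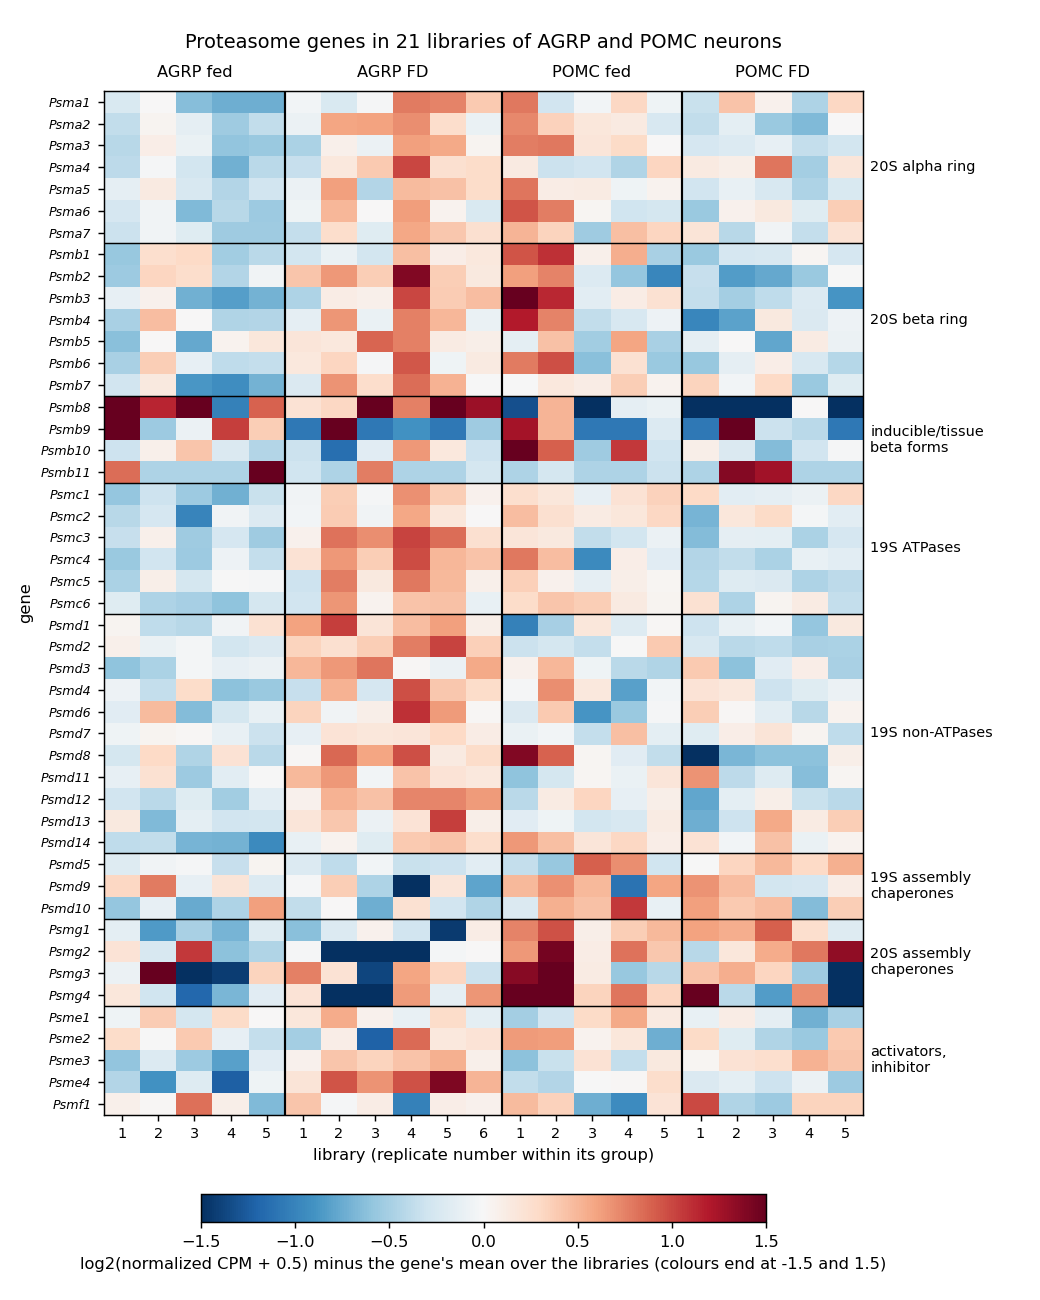
Heat map of 47 proteasome genes (rows, grouped by part) in 21 libraries (columns, grouped by cell type and food). Colour is log2 of normalized CPM plus 0.5 minus the gene's mean over all libraries, red for higher and blue for lower. AGRP FD replicate 4 had 31 of 31 core and regulatory subunits above their mean and AGRP fed replicates 4 and 5 had 2 of 31. The groups overlapped, with 17 of 31 in AGRP fed replicate 2 and 13 of 31 in AGRP FD replicate 1. Scaling to spike-in RNA in place of total RNA lowers AGRP FD and POMC FD libraries relative to fed ones. The spike-in volume and the number of sorted cells differed between libraries, and their part in this was not tested.

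Among the activators, Psme4 (ENSMUSG00000040850, chr11:30771726-30880361) encodes PA200, a nuclear protein that caps the 20S core. Its level was 75.3, 54.3, 89.6, 43.7 and 98.1 normalized CPM in AGRP fed replicates 1 to 5 and 118, 197, 163, 199, 271 and 146 in AGRP FD replicates 1 to 6. All AGRP FD libraries were above all AGRP fed libraries. The log2 fold change was 1.34 ± 0.22 (SE, q = 6.66e-05), and Psme4 passed in 11 of 11 fits that each left out 1 library. Psme3, the nuclear activator PA28 gamma, was 81.1, 106, 83.7, 69.3 and 109 normalized CPM in the fed and 128, 164, 155, 165, 178 and 129.8 in the FD libraries, again without overlap, with a log2 fold change of 0.77 ± 0.18 (SE, q = 0.00333). Psme1 and Psme2, the alpha and beta chains of PA28 that interferon induces, did not pass, at 0.07 ± 0.19 (SE, q = 0.878) and 0.00 ± 0.29 (SE, q = 0.997), nor did the inhibitor Psmf1, at -0.14 ± 0.32 (SE, q = 0.856).

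In the 19S particle, 4 of 6 ATPases and 4 of 11 non-ATPase subunits passed, all higher in AGRP FD. Psmd12, a scaffold subunit of the lid (ENSMUSG00000020720, chr11:107479484-107504362), was 135, 125, 146, 115 and 148 normalized CPM in AGRP fed and 172, 238, 224, 274, 275 and 258 in AGRP FD libraries. The groups did not overlap, and the log2 fold change was 0.84 ± 0.17 (SE, q = 0.000769). Psmd14, the deubiquitinase that removes ubiquitin chains from substrates, was 85.1, 85.7, 68.1, 67.6 and 57.0 normalized CPM in fed and 102, 115, 97.5, 146, 149 and 132 in FD libraries. On this scale it too was higher in every FD library, with a log2 fold change of 0.77 ± 0.17 (SE, q = 0.00316). In TPM the groups overlapped, with FD replicate 3 at 191 and fed replicate 1 at 203. Of the ATPases, Psmc4 was 45.0, 54.5, 45.4, 62.8 and 51.8 normalized CPM in fed and 77.0, 104, 85.9, 131, 94.1 and 89.8 in FD libraries, with no overlap and a log2 fold change of 0.90 ± 0.23 (SE, q = 0.00912). Psmc3 was 41.1, 55.3, 36.0, 43.8 and 36.0 normalized CPM in fed and 54.9, 92.7, 85.3, 106, 94.5 and 61.9 in FD libraries, where FD replicate 1 lay just below fed replicate 2, with a log2 fold change of 0.96 ± 0.22 (SE, q = 0.00333). The locus of Psmc3 overlaps Slc39a13 (mean 44.0 TPM, against 85.2 for Psmc3), and reads were counted without strand, so part of the Psmc3 value is uncertain. The other ATPases and non-ATPase subunits that passed were Psmc1, Psmc6, Psmd1 and Psmd2, with log2 fold changes of 0.63 to 0.75. Of the fits that each left out 1 of 11 libraries, Psmc1 passed in 11, Psmd2 in 10 (not without FD replicate 5), Psmd1 in 8 (not without fed replicate 2 or 3 or FD replicate 2) and Psmc6 in 3 (those without FD replicate 1, 3 or 6). The estimates of the 9 that did not pass lay between 0.23 for Psmd7 and 0.70 for Psmd3.

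**Figure D2:**
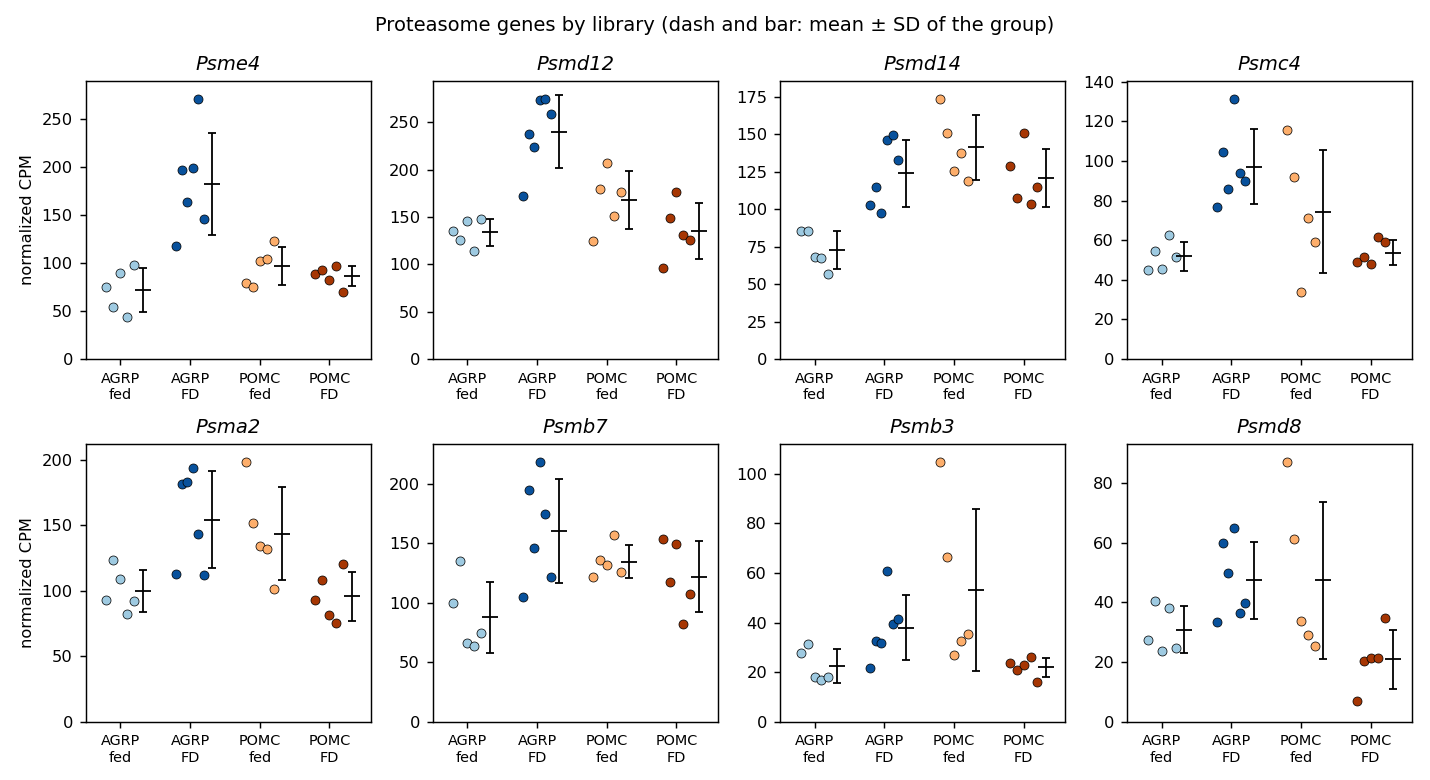
Normalized CPM of 8 proteasome genes in each library, 1 panel per gene and 1 column per group, with points for libraries and a dash with a bar for mean ± SD (n = 5, 6, 5 and 5). AGRP FD points of Psme4, Psmd12, Psmd14 and Psmc4 lie above all AGRP fed points, an order that holds for TMM scaling, while the POMC fed points of Psmb3 and Psmd8 spread widely.

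In the 20S core, 2 of 7 alpha and 1 of 7 beta subunits passed. Psmb7, the trypsin-like catalytic subunit, was 99.9, 135, 66.2, 63.6 and 74.2 normalized CPM in AGRP fed and 105, 194, 146, 218, 175 and 121 in AGRP FD libraries. Fed replicate 2 overlapped the FD group, and the log2 fold change was 0.87 ± 0.21 (SE, q = 0.00616). The other catalytic subunits did not pass. Psmb5, the chymotrypsin-like one, was 22.7, 35.4, 20.5, 36.8 and 39.7 normalized CPM in fed and 40.1, 39.5, 65.2, 60.2, 38.5 and 37.5 in FD libraries, with a log2 fold change of 0.59 ± 0.28 (SE, q = 0.195). Psmb6, the caspase-like one, gave 0.45 ± 0.26 (SE, q = 0.327). Of the alpha ring, Psma1 gave 0.77 ± 0.25 (SE, q = 0.0451) and Psma2 0.62 ± 0.19 (SE, q = 0.0319). Psma1 passed in 4 of 11 fits without 1 library (fed replicate 2 or FD replicate 1, 2 or 3) and Psma2 in 5 (fed replicate 2 or 3 or FD replicate 1, 5 or 6).

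The inducible catalytic subunits did not pass. Their estimates in AGRP neurons were -0.03 ± 1.00 (SE, q = 0.994) for Psmb8 and -0.03 ± 0.40 (SE, q = 0.982) for Psmb10. Psmb10 was 10.7, 14.0, 18.0, 11.3 and 9.64 normalized CPM in AGRP fed and 10.5, 5.81, 11.7, 21.2, 14.8 and 10.6 in AGRP FD libraries. Psmb9 (q = 0.922) was at 3.98, 0.220, 0.487, 1.66 and 0.857 normalized CPM in AGRP fed and 0, 6.10, 0, 0.0608, 0 and 0.224 in AGRP FD libraries, where 3 counts give 0.0797 to 0.224 CPM. Fed replicate 1 and FD replicate 2 stood highest, and FD replicates 1, 3 and 5 were at 0, so no fold is given. In summed TPM, the 3 constitutive subunits were at 635 ± 123 (SD, n = 5) in AGRP fed and 841 ± 110.2 (SD, n = 6) in AGRP FD libraries. The 3 inducible ones were at 47.7 ± 12.4 and 37.9 ± 7.83. The immunoproteasome forms were thus the minority in every library, with a summed level of at most 89.5 TPM (POMC fed replicate 1).

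None of the 7 chaperones of 19S or 20S assembly passed in AGRP neurons, and their log2 fold changes ran from -0.86 for Psmg2 to 0.34 for Psmg4, with 5 of 7 below 0. The 19S chaperones Psmd5, Psmd9 and Psmd10 summed to 169.6, 188, 160.1, 158 and 224 TPM in AGRP fed and 154, 139, 129.7, 116, 139 and 134 TPM in AGRP FD libraries. Each FD library was below each fed library in this sum, which was not tested. On the TMM-scaled CPM used for the calls the groups overlapped, in each of the 3 genes and in their sum, which was 86.95 to 117.5 in fed and 80.26 to 97.53 in FD libraries. The 11 non-ATPase subunits of the same particle summed to 1721, 1569, 1509, 1528 and 1557 TPM in AGRP fed and 2015, 1986, 1766, 2007, 2242 and 1929 TPM in AGRP FD libraries, where each FD library was above each fed library. Pomp, which is no Psm gene but guides the assembly of the 20S core and is degraded by it, was higher in AGRP FD. Its level was 105, 141, 113, 147 and 133 normalized CPM in fed and 192, 273, 229, 226, 221 and 208 in FD libraries, with a log2 fold change of 0.81 ± 0.17 (SE, q = 0.00128).

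**Figure D3:**
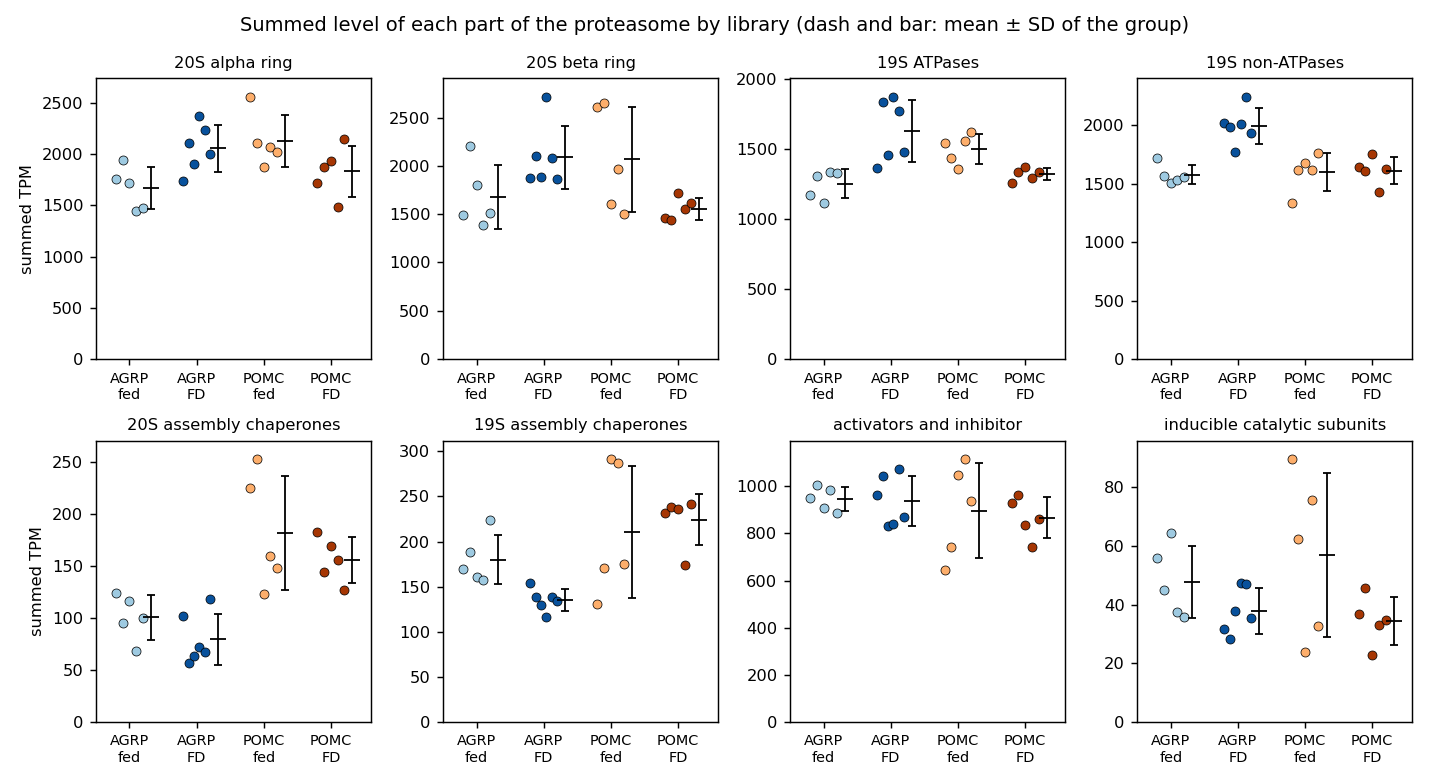
Summed TPM of 8 parts of the proteasome in each library (points), with mean ± SD (dash and bar) for AGRP fed, AGRP FD, POMC fed and POMC FD. The 19S non-ATPases are higher in all AGRP FD libraries than in any AGRP fed library. The 19S assembly chaperones are lower in all AGRP FD libraries on this scale but overlap in TMM-scaled CPM, and POMC fed replicates 1 and 2 hold the highest 20S beta ring sums of their group, 2604 and 2650.

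The change in AGRP neurons was relative to total RNA. All 48 genes summed to 7453 ± 542 TPM (SD, n = 5) in AGRP fed and 8956 ± 822 TPM (SD, n = 6) in AGRP FD libraries, 6953 to 8355 against 8064 to 10046, where FD replicates 1 and 3 lay below fed replicate 2. The TMM factors, which scale each library so that most genes do not change, were 1.04 to 1.11 in AGRP fed and 0.857 to 1.03 in AGRP FD libraries. With library size alone 8 of the 47 genes passed, and the median of all genes moved to -0.21. Scaled to the spike-in RNA, 0 passed, the median of all genes was -0.93 and that of the 47 was -0.48. Of the 13 genes, 2, Psme4 and Psmc3, kept a positive estimate (0.11 and 0.03). AGRP fed libraries held 1 with 1 µl of spike-in RNA, 2 with 10 µl and 2 set by cell number. AGRP FD libraries held 1, 2 and 3. POMC fed libraries held 3, 0 and 2 and POMC FD libraries 3, 2 and 0. Pools held 87 to 214 sorted cells in AGRP fed, 50 to 181 in AGRP FD, 72 to 108 in POMC fed and 44 to 120 in POMC FD. The part of the spike-in volume and of the number of cells in the spike-in values was not tested. The genes were also short, with a median exon length of 0.49 times that of all genes tested, and 23 of 47 passed after a trend with exon length was removed from each library. Within the mice of P51-56 (3 fed, 3 FD) 8 passed, and within those of P46-47 (2 fed, 3 FD) 0 passed, with medians of 0.59 and 0.51 and the 13 genes above 0 in both. Of the non-neuronal markers, the astrocyte gene Aldh1l1 was higher in AGRP FD (q = 0.0301, at most 0.0450 TPM in fed and 0.217 to 5.15 TPM in FD libraries). The other astrocyte markers, Gfap, Aqp4 and Gja1, had lower mean TPM in AGRP FD than in AGRP fed libraries. The 4 together averaged 3.72 TPM in fed and 3.73 TPM in FD libraries. All 16 markers summed to 37.0 to 62.0 TPM in fed and 25.5 to 44.8 TPM in FD libraries. The part of the markers in the result was not tested.

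The second comparison asked the same of POMC neurons. Of the 47 genes, 0 passed with edgeR, against 0.218% of all genes higher and 0.242% lower. An unadjusted p was under 0.05 for 10 genes. DESeq2 called 2, Psmb3 and Psmd8, both lower, and limma-voom 0, with 10 and 9 genes at an unadjusted p under 0.05. Estimates were below 0 for 37 of 47 genes, with a median of -0.25 against -0.02 for all genes tested. The libraries did not overlap for 4 genes, Psma3, Psma5, Psmb3 and Psmc5, all lower in FD, against 1.27% of all genes lower and 1.08% higher, and 0 met the criteria of the study, against 0.151% higher and 0.157% lower.

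Psmb3, a beta subunit without a catalytic site, was 105, 66.3, 26.9, 32.5 and 35.3 normalized CPM in POMC fed and 23.5, 20.9, 22.9, 26.1 and 16.0 in POMC FD libraries. Every POMC FD library was below every POMC fed library, and the log2 fold change was -1.28 ± 0.34 (SE, q = 0.0708). Psmd8, a lid subunit, was 87.2, 61.4, 33.7, 29.3 and 25.4 normalized CPM in POMC fed and 6.87, 20.3, 21.3, 21.3 and 34.9 in POMC FD libraries, which overlapped, with -1.18 ± 0.35 (SE, q = 0.121). The catalytic subunits gave -0.20 ± 0.29 (SE, q = 0.864) for Psmb5, -0.54 ± 0.27 (SE, q = 0.432) for Psmb6, -0.14 ± 0.22 (SE, q = 0.878) for Psmb7 and -0.98 ± 0.42 (SE, q = 0.323) for Psmb10. Psmb8 was 0.332, 2.44, 0.0393, 1.38 and 1.44 normalized CPM in POMC fed and 0, 0.143, 0.0846, 1.57 and 0.145 in POMC FD libraries. Psmb9 was at most 1.99 in POMC fed and 5.92 in POMC FD libraries, and was listed at 0 in 2 of 5 libraries of each. At 3 counts a library reaches 0.114 to 0.305 CPM in POMC neurons, so no fold is given for these 2 genes.

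POMC fed replicates 1 and 2 carried the highest values of both Psmb3 and Psmd8. These were the mice of P51. Psmb3 passed, lower in FD, when the age cohort was a term of the fit or when POMC fed replicate 3 was left out (1 gene each). Without the mice of P51, the median of the 47 genes in POMC FD against POMC fed was -0.10 and 0 passed. Within the 6 POMC libraries with 1 µl of spike-in RNA the median was -0.11 and 0 passed. After a trend with exon length was removed from each library the median was -0.098 and 0 passed.

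**Figure D4:**
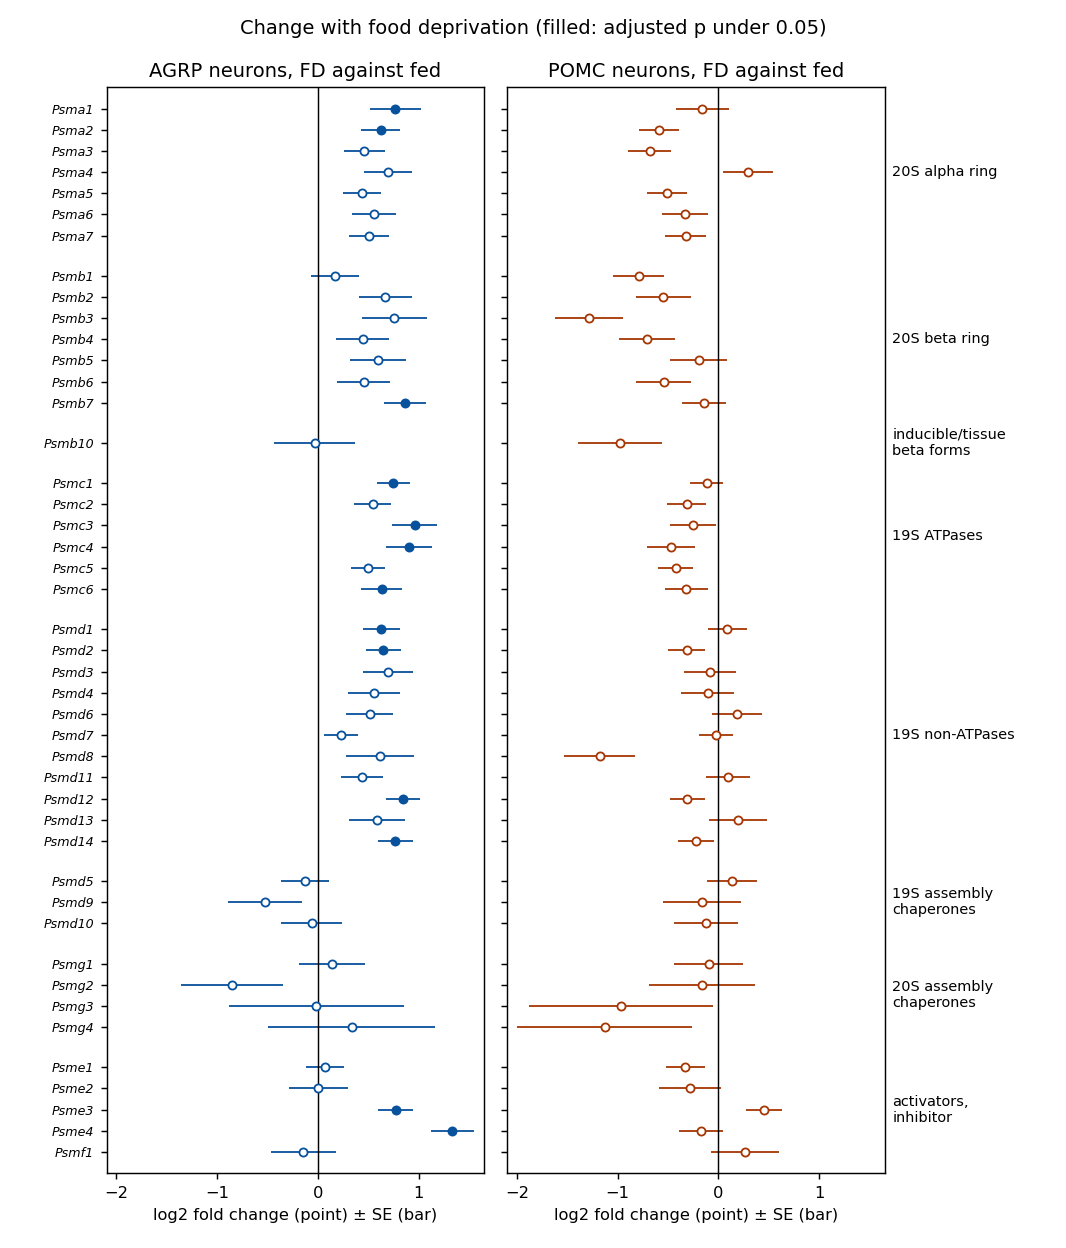
Log2 fold change with food deprivation (point) ± SE (bar) of 44 proteasome genes in AGRP neurons (left) and POMC neurons (right), grouped by part, with filled points for q under 0.05. Psmb8, Psmb9 and Psmb11 are left out for their low counts. All 31 core and regulatory subunits are above 0 in AGRP neurons and 26 of 31 are below 0 in POMC neurons. Scaled to spike-in RNA, 11 of the 13 filled points in AGRP neurons fall below 0.

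Whether the change differed between the 2 cell types was tested as the change in AGRP minus the change in POMC neurons. Of the 47 genes, 17 passed with a positive difference and 0 with a negative one, against 4.23% and 2.76% of all genes. By the criteria of the study 10 passed, all positive, against 2.92% and 1.68% of all genes. The median difference was 0.89 for the 47 genes and 0.01 for all genes tested. All 6 ATPases passed, with 3 of 7 alpha, 3 of 7 beta and 4 of 11 non-ATPase subunits, and Psme4. No inducible subunit and no assembly chaperone passed. Psme3, higher in AGRP FD, did not pass here, and its mean was 110 normalized CPM in POMC fed and 151 in POMC FD libraries. Differences were 1.51 ± 0.31 (SE, q = 0.00189) for Psme4, 1.15 ± 0.24 (SE, q = 0.00229) for Psmd12, 2.04 ± 0.47 (SE, q = 0.00576) for Psmb3 and 1.21 ± 0.28 (SE, q = 0.00576) for Psma2, an alpha subunit. For Psma2 the level was 92.9, 123, 109, 82.5 and 92.5 normalized CPM in AGRP fed, 112, 181, 183, 194, 144 and 112 in AGRP FD, 198, 152, 134, 132 and 101 in POMC fed and 93.0, 108, 81.2, 75.3 and 121 in POMC FD libraries. Both pairs of groups overlapped, with AGRP FD mostly above AGRP fed and POMC FD mostly below POMC fed. Psmd8 gave 1.80 ± 0.49 (SE, q = 0.0205), Psmc4 1.37 ± 0.33 (SE, q = 0.00895), Psmc3 1.21 ± 0.31 (SE, q = 0.0145) and Psmb2 1.22 ± 0.38 (SE, q = 0.0487), where Psmb2 is a beta subunit without a catalytic site.

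Fewer such genes passed without the POMC fed mice of P51. These 2 libraries were also the only POMC ones with the spike-in set by cell number. Age, that set and the smaller group cannot be told apart. Without these 2 libraries, 5 of the 17 passed, and the median was 0.54. Those were Psme4 at 1.69 (q = 0.00125), Psmd12 at 1.24 (q = 0.002), Psmd2 at 1.09, Psma2 at 0.98 and the ATPase Psmc1 at 0.85. Psmb3 and Psmd8 then stood at 1.29 (q = 0.0878) and 1.11 (q = 0.193). Scaled to spike-in RNA all 17 stayed positive and 0 passed. With the exon length trend removed from all libraries, 13 of the 17 passed, and the median was 0.78. Psmb2 passed in 7 of 21 fits without 1 library. For the catalytic subunits the difference was 0.79 ± 0.40 (SE, q = 0.266) for Psmb5, 1.00 ± 0.38 (SE, q = 0.116) for Psmb6, 1.01 ± 0.30 (SE, q = 0.0381) for Psmb7 and 0.94 ± 0.58 (SE, q = 0.388) for Psmb10.

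In fed mice, AGRP against POMC neurons, estimates were below 0 for 40 of 47 genes and for 28 of 31 core and regulatory subunits. Of all genes tested, 49.2% were above 0. Of the 47, 5 were lower and 0 higher in AGRP than in POMC neurons, against 4.32% and 3.36% of all genes, with a median of -0.42 against -0.01 for all genes. The criteria of the study were met by 1, Psmb3, as lower, against 1.71% of all genes higher and 2.3% lower, and the libraries did not overlap for 6, all lower, against 4.38% higher and 4.55% lower. Psmd14 differed most clearly, at 85.1, 85.7, 68.1, 67.6 and 57.0 normalized CPM in AGRP fed and 173, 151, 125, 138 and 118 in POMC fed libraries. The groups did not overlap, and the log2 fold change was -0.96 ± 0.18 (SE, q = 0.000394). The ATPase Psmc1 was 101, 122, 104, 92.0 and 120.4 normalized CPM in AGRP fed and 180, 170.1, 139, 176 and 193 in POMC fed libraries, also without overlap, with -0.67 ± 0.17 (SE, q = 0.00859). The catalytic subunits gave -0.24 ± 0.29 (SE, q = 0.738) for Psmb5, -0.47 ± 0.27 (SE, q = 0.377) for Psmb6, -0.62 ± 0.22 (SE, q = 0.0839) for Psmb7 and -0.83 ± 0.42 (SE, q = 0.28) for Psmb10. Psmb3, Psma3 and Psmc2 gave -1.24 ± 0.34 (SE, q = 0.0164), -0.73 ± 0.21 (SE, q = 0.0251) and -0.62 ± 0.19 (SE, q = 0.0423). Without the POMC fed mice of P51, 2 passed, Psmd14 and Psmc1. Leaving out 1 library gave 2 (POMC fed replicate 1 or 2), 3 (AGRP fed replicate 1, 3, 4 or 5), 5 (POMC fed replicate 4), 6 (AGRP fed replicate 2 or POMC fed replicate 5) or 9 genes (POMC fed replicate 3). Scaled to spike-in RNA the median of all genes was 0.82 and that of the 47 was 0.27, with Psmc1 at 0.19, Psmc2 at 0.31 and 0 genes passed.

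In FD mice all 9 core and regulatory subunits that passed were higher in AGRP neurons. Of the 47 genes, 11 were higher and 0 lower in AGRP FD than in POMC FD libraries, against 9.36% and 9.33% of all genes, with medians of 0.30 and -0.0038. The criteria of the study were met by 3, Psmb2, Psmd8 and Psme4, all higher, against 4.12% and 4.02%, and the libraries did not overlap for 6 higher genes and 1 lower, the chaperone Psmd5, against 5.94% and 5.49%. Psmd2, a base subunit of the 19S particle that binds shuttle factors, was 136, 127, 139.6, 185, 219 and 138 normalized CPM in AGRP FD and 91.4, 81.3, 82.9, 77.1 and 77.8 in POMC FD libraries, without overlap, with 0.94 ± 0.18 (SE, q = 0.000176). Psme4, Psmc3, Psmb2 and Psmc4 were also higher in every AGRP FD library, with 1.08 ± 0.21 (SE, q = 0.000331), 0.97 ± 0.22 (SE, q = 0.00137), 1.10 ± 0.27 (SE, q = 0.00334) and 0.85 ± 0.23 (SE, q = 0.00778). Psmd8 and Psmd12 gave 1.18 ± 0.34 (SE, q = 0.0128) and 0.82 ± 0.17 (SE, q = 0.000419). The catalytic subunits gave 0.55 ± 0.28 (SE, q = 0.178) for Psmb5, 0.53 ± 0.26 (SE, q = 0.173) for Psmb6, 0.39 ± 0.21 (SE, q = 0.211) for Psmb7 and 0.11 ± 0.40 (SE, q = 0.898) for Psmb10. Psmb8 passed (q = 0.0354), at 1.90, 2.07, 5.34, 2.98, 6.68 and 4.54 normalized CPM in AGRP FD against 3 counts or fewer in 4 of 5 POMC FD libraries, and passed in 4 of 11 fits without 1 library. These comparisons and the 2 within a cell type share their groups, so their values are not independent.

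The other genes of the pathway were read as lists, beside the 6% of all genes that were higher and the 4.5% that were lower in AGRP FD. Of 10 further parts of the proteasome and bound proteins, 2 passed as higher in AGRP FD, Pomp and Zfand5, a protein that binds the 19S particle, at 0.73 ± 0.18 (SE, q = 0.00877). Adrm1, a ubiquitin receptor of the 19S particle, was at 0.50 ± 0.34 (SE, q = 0.432). Of 10 shuttle factors and parts of the p97 complex, which bring ubiquitinated proteins to the proteasome, 2 were higher, Ubqln2 at 0.68 ± 0.18 (SE, q = 0.00995) and Vcp, the p97 ATPase itself, at 0.56 ± 0.16 (SE, q = 0.017). Vcp was 198, 182, 156, 154 and 155 normalized CPM in AGRP fed and 207, 281, 224, 270.1, 301 and 213 in AGRP FD libraries, which did not overlap. In TPM the groups overlapped, with a highest fed value of 219 and a lowest FD value of 202. None of 6 ubiquitin genes and activating enzymes and none of 7 transcription factors and their processing enzymes passed in AGRP FD. Nfe2l1 was 270.5, 284, 254, 316 and 326 normalized CPM in AGRP fed and 329, 328, 381, 344, 274 and 265 in AGRP FD libraries, with 0.14 ± 0.14 (SE, q = 0.626). The groups overlapped, and this measures the transcript and not the processing of the protein that sets its activity.

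Genes of the interferon response moved both ways in AGRP neurons. Of 10 tested, 4 were lower in AGRP FD and 1 higher, against 4.5% and 6% of all genes. Irf9, a factor that relays interferon signals, gave -1.46 ± 0.37 (SE, q = 0.00872). Its level was 24.2, 58.5, 38.8, 31.0 and 28.6 normalized CPM in fed and 13.4, 13.6, 15.6, 10.2, 13.1 and 13.0 in FD libraries, without overlap. Ifit1, an antiviral protein, was 4.44, 14.9, 22.9, 4.08 and 2.57 normalized CPM in fed and 0 to 0.750 in FD libraries (q = 0.0133). Ifit3 was listed at 0 in all 6 FD libraries and at 0.0536 to 1.22 in fed ones (q = 0.0219). In fed libraries 3 counts give 0.151 to 0.202 CPM, so Ifit3 lay near that floor. B2m, the light chain of the molecules that present proteasome products, went the other way, at 133, 136, 88.7, 112 and 161 normalized CPM in fed and 237, 307, 312, 376, 259.6 and 256 in FD libraries, a log2 fold change of 1.21 ± 0.23 (SE, q = 0.000383). In POMC neurons Irf9 was the one gene of these lists that passed, lower at -1.65 ± 0.40 (SE, q = 0.0489). In the test of the difference between cell types, Pomp, Txnl1 (a thioredoxin-like protein of the 19S particle), Ubqln1, Vcp, Uba1 (the main ubiquitin-activating enzyme) and B2m were positive, from 0.65 for Uba1 to 1.19 for B2m, and Ifit1 and Ifit3 were negative.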

How the data were processed

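Pooled RNA of sorted AGRP and POMC neurons was sequenced from 21 mice. Per the submitters' notes and methods, the authors trimmed reads with cutadapt 1.7.1, set aside abundant sequence (such as ribosomal RNA) with Bowtie2 2.1.0, aligned to mm10 with STAR 2.4.0i and counted reads per gene without strand with HTSeq 0.6.1p1. The deposited counts are not normalized, and the deposited TPM values, also made by the authors, were used for levels between genes. Amplification before sequencing means that counts are not independent molecules, so floors cover counting error only. The 92 spike-in entries and 5 summary entries were kept out of library sizes (reads in no gene were 25.6 to 55.3%).

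Genes above 1 CPM in at least 3 libraries (16513) were fitted over 4 groups with the quasi-likelihood test of edgeR 4.0.16 (R 4.3.3, TMM scaling, robust estimation). Calls used a Benjamini-Hochberg adjusted p under 0.05 over all genes, in 5 comparisons. The code was tested on simulated data. Normalized CPM is CPM on the TMM-scaled library size. limma 3.58.1 and DESeq2 1.42.0, other scalings, blocks, offsets and left-out libraries were alternatives, some of them (library size alone, GC offsets, single cohorts or spike-in sets, no robust estimation, summed CPM of the 19S chaperones) chosen after seeing the data. Each library came from 1 mouse, so p-values measure the spread between libraries, in which mice, sorting and amplification cannot be told apart.

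Full statistics were given for called members, at most the 8 largest in each direction, and for the catalytic subunits and their inducible counterparts, except where counts were near the floor. Levels were given for the 3 highest and 3 lowest members. Pathway genes were named when called (at most the 8 smallest p), plus Nfe2l1, Pomp and Adrm1, and 1 called gene of the interferon list is not reported here. Psmd13, Psmd3, Psmd7, genes whose libraries did not overlap, the chaperones and Psme1, Psme2 and Psmf1 were named outside this rule, after their values were seen. The members and lists were chosen with earlier results of these data known.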

Additional observations from a re-analysis of the deposited data

Results flagged for a closer look

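Of 88 groups of values examined, 5 held a library that stood apart from its group. Chance alone flags at least about 1 in 20, so this number is near the share that chance gives. AGRP FD replicate 4, the deepest library, had 251 normalized CPM of Psmb2, with the next library at 149.7, and 121.8 of Psmb6, with the next at 79.18. Psmb9 was at 6.099 normalized CPM in AGRP FD replicate 2, with the next library at 0.2235, and at 5.921 in POMC FD replicate 2, with the next at 0.3385. Psmb8 was at 1.572 normalized CPM in POMC FD replicate 4, with the next library at 0.1451.

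The change with food deprivation differed between AGRP and POMC neurons by the interaction test for 17 genes, with differences on the log2 scale of 1.21 for Psma2, 1.14 for Psma3, 0.94 for Psma5, 1.22 for Psmb2, 2.04 for Psmb3, 1.01 for Psmb7, 0.87 for Psmc1, 0.86 for Psmc2, 1.21 for Psmc3, 1.37 for Psmc4, 0.92 for Psmc5, 0.95 for Psmc6, 0.96 for Psmd2, 1.80 for Psmd8, 1.15 for Psmd12, 0.99 for Psmd14 and 1.51 for Psme4. Without the 2 POMC fed mice of P51, 5 of them passed, as given above.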

How the results depend on the processing

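Counts of called members under the alternatives, in the order AGRP FD against fed, POMC FD against fed, fed types, FD types and the difference between cell types, were as follows. The criteria of the study for a differentially expressed gene left 1, 0, 1, 3 and 10. Spike-in scaling gave 0 in all 5. Library size alone gave 8 in AGRP, 3 in fed types and 10 for the difference. Exon length offsets gave 23, 0, 4, 13 and 13, and with GC content 22, 0, 4, 13 and 16. The AGRP mice of P46-47 alone gave 0 and those of P51-56 alone 8. DESeq2 gave 2 in POMC and 8 in fed types, and the age cohort block 1 and 2. Without the POMC fed mice of P51, fed types had 2 and the difference 5. Leaving out 1 library gave 10 to 17, 0 to 1, 2 to 9, 10 to 14 and 12 to 19. In place of summed TPM, counts per kb on the TMM-scaled library size summed to 6809 in AGRP fed and 9791 in AGRP FD libraries (mean). The causes were not tested.

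Replicate numbers did not pair samples: same-numbered libraries had correlations of -0.21 to 0.13, and the replicate block gave 11, 0, 5, 11 and 13 calls.

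Some log2 fold changes turned in sign. Under spike-in scaling in AGRP neurons they were -0.21 for Psmc4, -0.068 for Psmb7, -0.27 for Psmd12, -0.29 for Psme3, -0.13 for Psma1, -0.13 for Psmd14, -0.51 for Psmb5 and -0.46 for Psmb6, and for fed types 0.19 for Psmc1 and 0.31 for Psmc2. Psmb8 in AGRP turned to 0.22 with limma-voom, 0.19 with the age cohort, 0.17 with the spike-in set, 0.29 with sorted cells, 0.11 with length, 0.10 with GC and length and 0.67 in P46-47 mice, and Psmb10 to 0.026 with limma-voom, 0.095 with length, 0.14 with GC and length and 0.11 in P51-56 mice. In POMC, Psmb5 turned to 0.037 with length and 0.13 with GC and length, Psmb6 to 0.088 in the 1 µl set and 0.033 without P51 mice, Psmb7 to 0.078 with length and 0.016 in the 1 µl set. Leaving out 1 library gave -0.32 to 0.19 for Psmb8 and -0.25 to 0.12 for Psmb10 in AGRP neurons. The fitted values of Psmb9, with libraries at 0 in both comparisons, are no measure of size and are given for their sign: -0.44 in AGRP (-4.58 to 0.39 without 1 library) and 0.95 in POMC neurons (-2.04 to 1.87 without 1 library, -0.36 with spike-in scaling, -0.28 with the replicate block).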

Other observations

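In FD mice the summed level of Psmd5, Psmd9 and Psmd10 was 116 to 154 TPM in the 6 AGRP FD libraries and 174 to 241 TPM in the 5 POMC FD libraries, which did not overlap. This sum was not tested, none of the 3 genes passed, and Psmd5 was the one whose normalized CPM did not overlap, with log2 fold changes of -0.58 to -0.49. The groups of fed libraries overlapped, at 158 to 224 TPM in AGRP fed and 131 to 291 TPM in POMC fed libraries.

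Of the 11 genes higher in AGRP FD that have a RefSeq promoter, 3 (27.3%) held TGACNNNGC and 5 (45.5%) held CCAAT, and of the 29 other members with a promoter 3 (10.3%) and 9 (31%), against 14% and 41.1% of all genes with a promoter.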
